A study of Mus musculus with 4 samples.

Results

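The AP-1 and EGR immediate early genes were examined as the 10 listed symbols Fos, Fosb, Fosl2, Jun, Junb, Jund, Egr1, Egr2, Egr3 and Atf3, taken by name from a count table of 24062 genes. All 10 were in the table, and 9 of them passed a filter on low counts that kept 11271 genes for testing. Atf3 did not pass. The cells were gBT-I, CD8+ T cells whose transgenic antigen receptor recognises a herpes simplex glycoprotein B peptide, from gBT-I tg donors kept specific pathogen free (SPF). Splenocytes were stimulated in culture with the peptide and LPS, received IL-1 (as the labels write it) on days 2 and 3, and were injected intravenously on day 4 into C57BL/6 recipients that were either SPF or germ free (GF). RNA came from gBT-I cells enriched and sorted from the spleen 7 days after transfer, with 2 libraries for each recipient group. Donor genotype, culture, transfer, tissue and day were the same in both groups, so that the recipient is the labelled difference. The labels do not say how many mice gave each library, whether mice were pooled, or what drives the receptor transgene, and p-values therefore measure only the spread between these libraries, which may be technical.

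AP-1 is a dimer of basic leucine zipper proteins, in which a JUN protein pairs with a FOS protein, another JUN or an ATF protein. EGR proteins are zinc finger factors that bind GC-rich DNA. In T cells, antigen receptor signals reach these genes through ERK, JNK and p38 kinases and calcium, and their transcripts appear within minutes of a signal without new protein synthesis and decay fast. They are also known to be induced by stress, including the handling of tissue and cells.

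The promoters of Fos, Fosb and Jun are shown because these genes had the widest ranges of level among the members. That of Egr2 is shown as an example of a member with a far narrower range, and Fosl2 and Jund had narrow ranges too. The sequences run from 250 bases before the RefSeq start site to 50 bases from it (GRCm38.p6). Those of Fos (chr12:85473640-85473939, plus strand), Fosb (chr7:19309996-19310295, minus strand), Jun (chr4:95052173-95052472, minus strand) and the third of the 5 listed for Egr2 (chr10:67537619-67537918, plus strand) are printed in the direction of the gene. Capitals mark matches to the motifs searched.
Fos: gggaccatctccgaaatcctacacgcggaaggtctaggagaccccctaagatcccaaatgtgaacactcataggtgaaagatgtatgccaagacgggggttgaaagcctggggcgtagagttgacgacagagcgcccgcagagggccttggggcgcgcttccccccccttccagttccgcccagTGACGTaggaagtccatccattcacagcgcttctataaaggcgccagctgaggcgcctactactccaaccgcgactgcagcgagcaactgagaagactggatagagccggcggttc
Fosb: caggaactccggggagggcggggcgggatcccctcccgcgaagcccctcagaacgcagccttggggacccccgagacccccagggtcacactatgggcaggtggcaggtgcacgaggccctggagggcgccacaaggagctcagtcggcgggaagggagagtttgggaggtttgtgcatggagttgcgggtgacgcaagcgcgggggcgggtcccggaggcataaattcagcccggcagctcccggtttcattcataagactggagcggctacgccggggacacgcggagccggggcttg
Jun: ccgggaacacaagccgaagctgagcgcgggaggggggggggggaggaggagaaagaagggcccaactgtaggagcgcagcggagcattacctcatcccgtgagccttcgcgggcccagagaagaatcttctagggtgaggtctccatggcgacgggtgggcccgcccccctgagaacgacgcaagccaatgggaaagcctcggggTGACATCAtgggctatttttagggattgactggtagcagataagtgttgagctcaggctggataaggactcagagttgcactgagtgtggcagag
Egr2: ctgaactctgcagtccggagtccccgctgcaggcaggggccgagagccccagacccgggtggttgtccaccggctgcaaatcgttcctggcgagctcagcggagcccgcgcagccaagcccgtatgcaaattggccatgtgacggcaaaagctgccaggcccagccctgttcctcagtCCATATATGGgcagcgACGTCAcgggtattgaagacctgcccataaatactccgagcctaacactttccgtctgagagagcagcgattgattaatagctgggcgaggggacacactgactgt

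The motifs searched on both strands were TGACGT, the core of the cyclic AMP response element, TGACTCA, the classical AP-1 site, TGACATCA, an AP-1 variant known from the Jun promoter, GCGTGGGCG, the EGR site, and the CArG box, which the serum response factor binds. None of the motifs overlapped another in the printed promoters. TGACGT began 66 bases before the start site in Fos, its reverse 56 bases before it in Egr2 and 8 bases before it in Atf3, against 7.51% of 32851 RefSeq promoters of the same length that hold it. TGACATCA began 45 bases before the start site in Jun, and 3.62% of promoters hold it. The printed Egr2 promoter held a CArG box that began 72 bases before the start site, a motif found in 1.63% of promoters. The second listed Egr2 promoter held a CArG box only. The first Egr2 promoter and those of Fosb, Fosl2, Junb and Jund held none of the motifs. No listed promoter of a member held TGACTCA (5.2% of promoters) or GCGTGGGCG (0.612%). A match is a description of the letters and not a measured binding site, and a window without a match says nothing about the factor.

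Total counts ranged from 11544960 in SPF replicate 1 to 14431533 in GF replicate 2. Levels are given as CPM, read counts scaled to library size after TMM adjustment, and 3 counts, the limit that a count of 0 allows, correspond to 0.205 to 0.262 CPM on the same scale (counting error only). Cd8a, a co-receptor gene that defines CD8 T cells, measured 790.3 to 991.4 CPM in all 4 libraries. Of the 6 tested CD8 T cell markers, the 5 others were lower in both replicates 2 than in both replicates 1, beside 29.6% of all tested genes. The 6 summed to 4352 and 3060 CPM in SPF replicates 1 and 2 and to 3499 and 3079 CPM in GF replicates 1 and 2. Libraries that share a replicate number were alike in many genes: across the 11271 tested genes, which are not independent, the difference of replicate 2 minus replicate 1 in SPF correlated with that in GF (Pearson r = 0.71). No label says that a number marks a shared animal, day or batch. Each member is therefore described both by recipient and by replicate number, which are splits of the same 4 libraries.

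Fos, Fosb and Jun, the inducible core of AP-1, were low in SPF replicate 1, intermediate in GF replicate 1 and high in both libraries numbered 2. Fos had 4.28 and 135.4 CPM in SPF replicates 1 and 2, and 46.04 and 185.1 CPM in GF replicates 1 and 2, from 49, 1917, 674 and 2587 reads. Both libraries numbered 2 lay above both numbered 1, while the recipient groups overlapped. The Fos transcript was 31.6 times as abundant in SPF replicate 2 as in SPF replicate 1, and 4.02 times in GF replicate 2 as in GF replicate 1. Between recipients, GF replicate 1 had 10.8 times the level of SPF replicate 1, and GF replicate 2 had 1.37 times that of SPF replicate 2. Fos thus differed more between replicates of a group than between the recipient means, which were 69.9 ± 92.7 CPM for SPF and 115.6 ± 98.4 CPM for GF (SD over 2 libraries each).

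Fosb, which encodes a FOS protein with a stable short splice form known from neurons, had 1.05 and 46.7 CPM in SPF replicates 1 and 2 and 11.3 and 89.96 CPM in GF replicates 1 and 2. The SPF replicate 1 value rests on 12 reads. Its order over the libraries was that of Fos, with a ratio of 44.5 between the SPF replicates and 7.93 between the GF replicates. Jun, the founding JUN protein and main partner of FOS, had 9.35 and 122.0 CPM in the SPF replicates and 37.2 and 144.6 CPM in the GF replicates. The ratio of replicate 2 to replicate 1 was 13.1 in SPF and 3.89 in GF for Jun. In all 3 genes GF exceeded SPF among the libraries numbered 1 and among those numbered 2, and GF replicate 1 lay below SPF replicate 2.

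**Figure D1:**
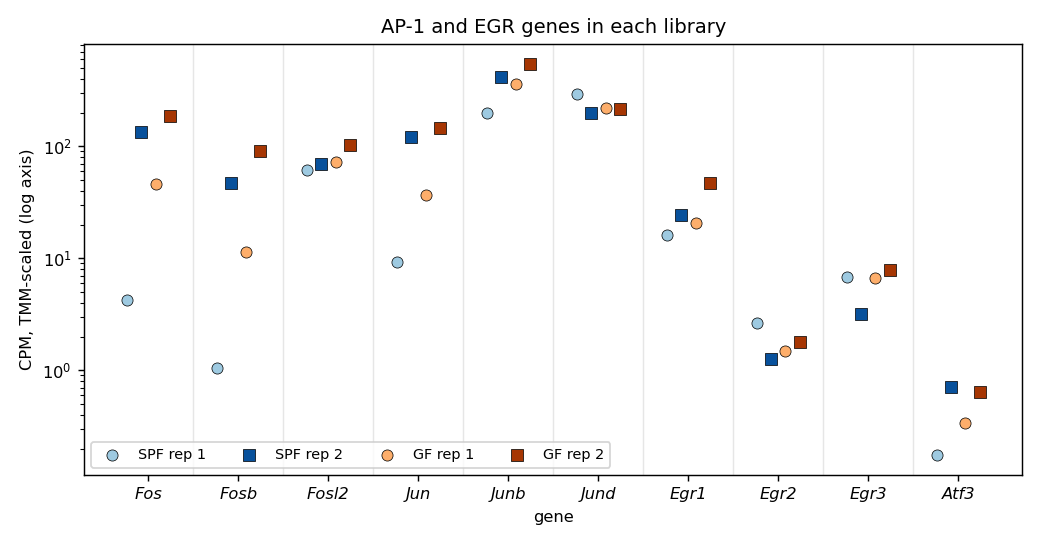
Level of each gene in each library in CPM on a log axis, 1 point per library, circles for replicates 1 and squares for replicates 2, blue for SPF and orange to brown for GF. Fos, Fosb and Jun spread over more than a factor of 10 between libraries (4.28 to 185.1 CPM for Fos), with SPF replicate 1 lowest and both squares above both circles, while Fosl2 and Jund keep close levels.

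Fosl2, Junb and Jund encode further AP-1 subunits, of which JUND is known as a subunit made in most resting cells and JUNB as one that can temper the activity of JUN. Fosl2 had 61.8 and 69.8 CPM in the SPF replicates and 72.9 and 103.6 CPM in the GF replicates. It was the single tested member with both GF libraries above both SPF libraries, which held for 16.8% of all tested genes. Junb had 196.7 and 415.5 CPM in SPF and 358.4 and 548.5 CPM in GF, an order like that of Fos with a narrower range. The Junb ratio of replicate 2 to replicate 1 was 2.11 in SPF and 1.53 in GF. Jund had 292.6 and 197.0 CPM in SPF and 219.7 and 217.5 CPM in GF, so that SPF replicate 1, lowest for Fos, Fosb, Jun and Junb, was highest for Jund.

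Egr1, Egr2 and Egr3, zinc finger factors of which EGR2 and EGR3 are known to restrain T cell activation, did not share a pattern. Egr1 had 16.2 and 24.2 CPM in SPF replicates 1 and 2, and 20.5 and 46.9 CPM in GF replicates 1 and 2. Its libraries numbered 2 lay above those numbered 1, and GF lay above SPF within each number. Egr2 had 2.62 and 1.27 CPM in SPF and 1.503 and 1.79 CPM in GF, from 30, 18, 22 and 25 reads, and its groups overlapped by recipient and by number. Egr3 had 6.81 and 3.18 CPM in SPF and 6.69 and 7.87 CPM in GF, with SPF replicate 2 apart at the low end. Atf3, a stress-induced ATF protein that pairs with JUN, had 2, 10, 5 and 9 reads in SPF replicates 1 and 2 and GF replicates 1 and 2, or 0.17, 0.71, 0.34 and 0.64 CPM, too few for a test.

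By recipient, no member passed the test. The edgeR quasi-likelihood test with Benjamini-Hochberg adjustment over 11271 genes called 0 of 9 members in GF against SPF, beside 0% of all tested genes, and 0 members had an unadjusted p under 0.05, beside 3.22% of all. DESeq2 and the edgeR exact test also called 0 members (each 0.0799% of all genes). Fosb had a log2 fold change of 1.08 (SE 1.57, adjusted p = 0.88), Egr1 of 0.74 (SE 0.46, adjusted p = 0.86) and Fos of 0.72 (SE 1.41, adjusted p = 0.90). Junb had 0.57 (SE 0.43), Egr3 0.55 (SE 0.45), Jun 0.47 (SE 1.18) and Fosl2 0.42 (SE 0.25), while Egr2 had -0.23 (SE 0.53) and Jund -0.16 (SE 0.26). With a trend of the library differences on transcript length removed, Fosl2 had 0.12 and Jund -0.0031 by recipient. The standard errors of Fos, Fosb and Jun exceeded their fold changes. Of the 9 members, 7 had a positive fold change in GF, with a median log2 CPM difference of 0.63 against -0.002 over all tested genes. Within each replicate number, Fos, Fosb, Fosl2, Jun, Junb and Egr1 were higher in GF, 6 of 9 members, which held for 37.3% of tested genes.

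The count by recipient changed with SPF replicate 2. Without that library, the edgeR quasi-likelihood test called 5 members higher in GF (Fos, Fosb, Jun, Junb and Egr1), beside 7.14% of all tested genes called higher. Fos then had a log2 fold change of 4.75 (adjusted p = 1.11e-25) and Jun of 3.28 (adjusted p = 7.52e-15), with SPF replicate 1 as the lone SPF library, assumed to vary like the GF group. Without SPF replicate 1, 0 members were called, beside 0.169% of all genes, and Fos and Jun had log2 fold changes of -0.23 and -0.42. The median of the members, 0.63 with all libraries, was 0.15 without SPF replicate 1 and 0.15 without GF replicate 2, and 0.93 without SPF replicate 2 and 0.94 without GF replicate 1.

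**Figure D2:**
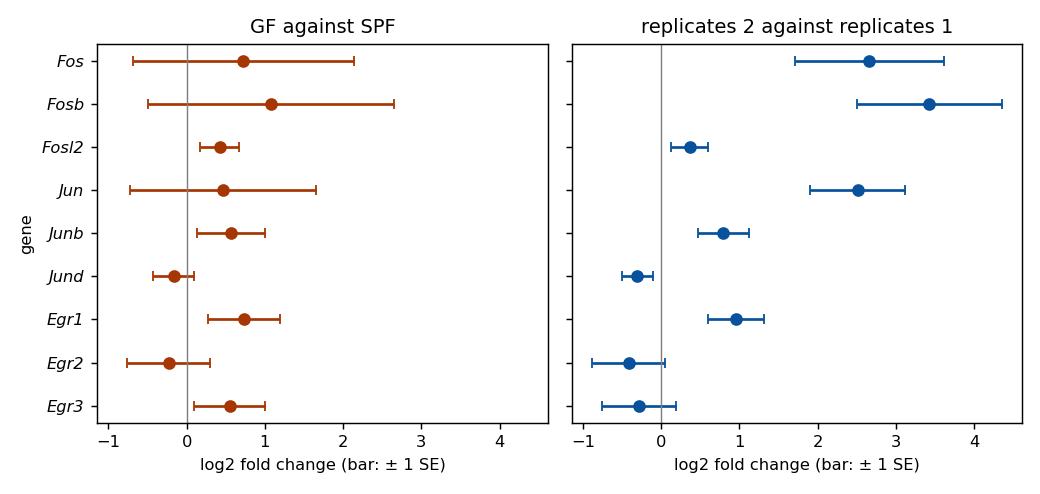
Log2 fold change of the 9 tested genes with bars of 1 SE, from the same edgeR test on the same 4 libraries split by recipient (left) and by replicate number (right). Fos, Fosb and Jun lie at 0.72, 1.08 and 0.47 by recipient with bars that cross 0, and at 2.66, 3.43 and 2.51 by number with bars that do not.

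By replicate number, the fold changes were larger and still did not pass after adjustment. The same edgeR test called 0 of 9 members in the libraries numbered 2 against those numbered 1, beside 0% of all tested genes (smallest adjusted p of any gene 0.16). At an unadjusted p under 0.05 there were 4 members, all higher in the libraries numbered 2, beside 9.67% of tested genes higher at that level. Fosb had a log2 fold change of 3.43 (SE 0.93, adjusted p = 0.26), Fos of 2.66 (SE 0.95, adjusted p = 0.26) and Jun of 2.51 (SE 0.61, adjusted p = 0.26). Egr1 had 0.96 (SE 0.36, adjusted p = 0.27) and was the fourth of them. Ranked by this fold change among the 11271 tested genes, Fosb was number 5, Fos number 20 and Jun number 24. DESeq2 called Jun alone among the members (adjusted p = 7.65e-05), beside 1.77% of all genes called higher, and the edgeR exact test called Jun (adjusted p = 0.0081) and Fosb (adjusted p = 0.037), beside 1.87%.

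Junb had a log2 fold change by number of 0.80 (SE 0.33), Fosl2 of 0.36 (SE 0.24), Egr3 of -0.29 (SE 0.47), Jund of -0.31 (SE 0.20) and Egr2 of -0.42 (SE 0.47). Both libraries numbered 2 lay above both numbered 1 for Fos, Fosb, Jun, Junb and Egr1, 5 of 9 members, as for 28.4% of all tested genes. The order was the opposite for Jund, as for 29.6% of genes, although its GF replicates differed only by a ratio of 0.990. Within both recipient groups, log2 differences of replicate 2 minus replicate 1 over 1 were found for Fos (4.94 in SPF and 2.004 in GF), Fosb (5.29 and 2.97) and Jun (3.69 and 1.96). Such differences occurred in 260 tested genes, or 2.31%. The median over the members was 0.58 in SPF and 0.61 in GF, and -0.01 over all tested genes in each.

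**Figure D3:**
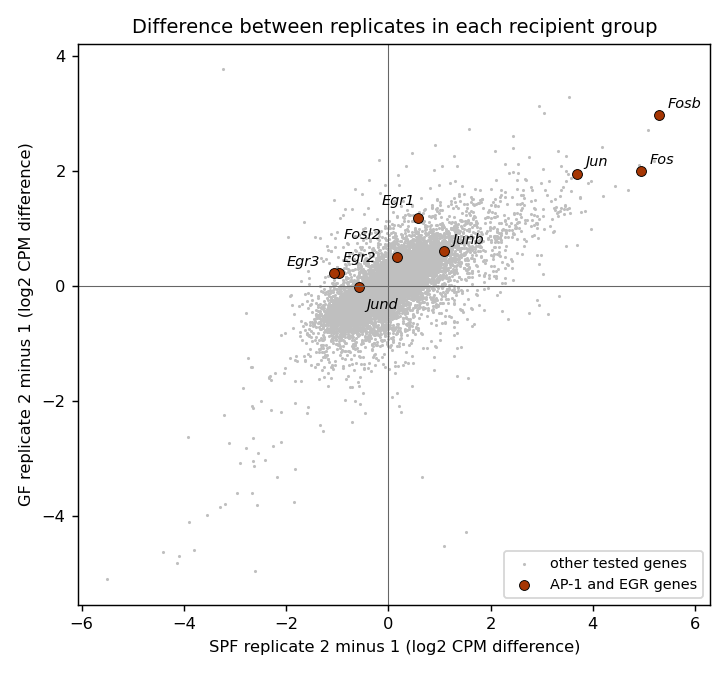
Log2 CPM difference of replicate 2 minus replicate 1 in SPF recipients (horizontal) and in GF recipients (vertical) for every tested gene in grey and the 9 tested AP-1 and EGR genes in red-brown. Fosb, Fos and Jun lie at the far upper right (5.29 and 2.97 for Fosb), Egr2 and Egr3 lie left of 0 and slightly above it, and Jund lies left of 0.

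These calls by number also changed with single libraries. Leaving a library out leaves its replicate number with a lone library, which the test assumes to vary like those of the other number. The calls that follow therefore rest on a lone library on that side. Without GF replicate 1, the edgeR quasi-likelihood test called 7 members, with Fos, Fosb, Fosl2, Jun, Junb and Egr1 higher and Jund lower in the libraries numbered 2, beside 39.7% of all genes. Without SPF replicate 1 it called 4 (Fos, Fosb, Jun and Egr1), beside 4.59% called higher, and Fos then had a log2 fold change of 1.80. Without GF replicate 1 the log2 fold changes of Fos, Fosb and Jun were 5.22, 6.01 and 3.83, and without GF replicate 2 that of Egr1 was 0.40. Without SPF replicate 2 or GF replicate 2 it called 0 members and 0% of all genes. The members' median log2 difference by number was 0.85 with all libraries, 0.41 without SPF replicate 1 and 0.41 without GF replicate 2. Differences between replicates also followed transcript length over all genes (Spearman's rho of 0.56 in SPF and 0.51 in GF across 11194 genes, which are not independent). With the trend on transcript length removed, Fos, Fosb and Jun had log2 fold changes by number of 2.82, 3.37 and 2.52, close to those without the removal, whereas Fosl2, the longest member transcript at 6537 nt, went from 0.36 to -0.091 and Jund, the shortest at 1668 nt, from -0.31 to 0.012.

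Compared per length of the longest annotated transcript, Junb and Jund were the most abundant members, at means over the 4 libraries of 209.9 and 138.9 CPM per kb. They were followed by Fos at 43.99, Jun at 24.5, Fosl2 at 11.8, Fosb at 9.85, Egr1 at 6.01, Egr3 at 1.56 and Egr2 at 0.61 CPM per kb. Neighbours in this order overlapped in their ranges over libraries, with the exceptions of Jund (118.1 to 175.4) above Fos (2.03 to 87.8) and Egr1 (3.60 to 10.5) above Egr3 (0.81 to 1.998). Jund exceeded Junb in SPF replicate 1 and Junb exceeded Jund in the other 3 libraries. Fos ranked number 6 of the 9 members in SPF replicate 1, behind Junb, Jund, Fosl2, Egr1 and Jun, and number 3 in each of the others.

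The makeup of both families differed accordingly between libraries. Of the summed CPM per kb of Fos, Fosb and Fosl2, Fosl2 made up 80.4% in SPF replicate 1, 31.0% in GF replicate 1, and 12.2% and 12.4% in SPF and GF replicate 2. Fos made up 17.3% of that sum in SPF replicate 1 and 60.7 to 73.6% in the other libraries. The sum itself was 11.8 and 87.3 CPM per kb in SPF replicates 1 and 2 and 35.99 and 127.5 CPM per kb in GF replicates 1 and 2. Of the JUN family, Jund made up 61.1% in SPF replicate 1, 38.6% in GF replicate 1, 30.6% in SPF replicate 2 and 27.2% in GF replicate 2. Jun contributed 1.02%, 3.41%, 9.91% and 9.47% in the same order. Transcript shares do not give the shares of the proteins.

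**Figure D4:**
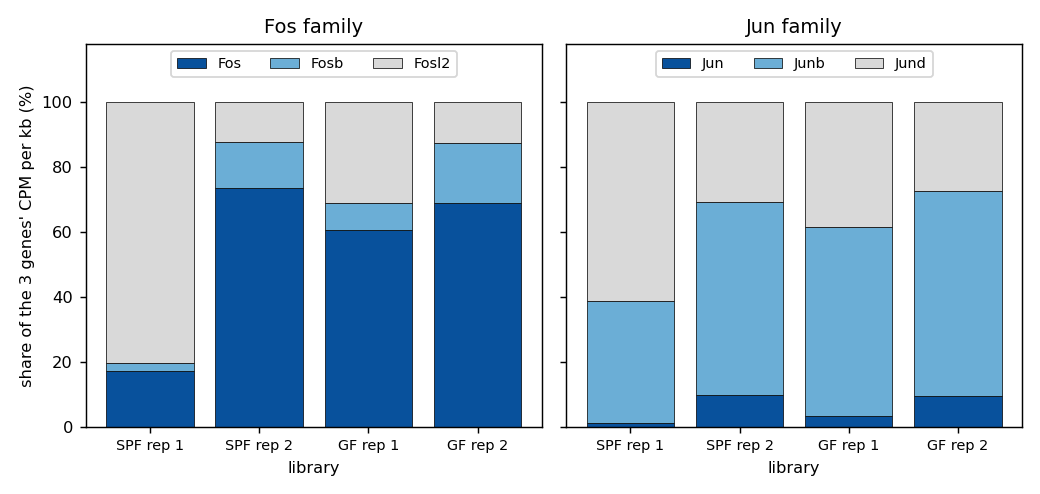
Share of each gene in the summed CPM per kb of the 3 FOS family genes (left) and the 3 JUN family genes (right) in each library, in percent, as stacked bars from 0. Fosl2 and Jund fill most of the bar of SPF replicate 1 (80.4% and 61.1%), and Fos and Junb most of the bars of the other libraries.

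Among other genes of the pathway, the 32 other immediate early and fast feedback genes held 7 higher and 1 lower at an unadjusted p under 0.05 by number, where 9.67% of all tested genes were higher and 8.92% lower at that level. By recipient 3 were higher and 0 lower, beside 2.17% and 1.05% of all tested genes. None passed the edgeR quasi-likelihood test over all genes in either split. DESeq2 called 4 of them higher by number, beside 1.77% of all genes. They were Klf4 (adjusted p = 0.0059), Ppp1r15a (adjusted p = 0.0066), Nr4a2 (adjusted p = 0.015) and Tnfaip3 (adjusted p = 0.033). The edgeR exact test called 3 higher, beside 1.87% of all genes: Klf4 (adjusted p = 0.0057), Ppp1r15a (adjusted p = 0.026) and Nr4a3 (adjusted p = 0.028). DESeq2 gave no adjusted p for Nr4a3. Neither tool called any by recipient. Their median log2 fold change was 0.43 by number and 0.37 by recipient, against -0.02 and -0.004 over all genes. Klf4, a zinc finger factor, had 0.87 and 6.71 CPM in SPF replicates 1 and 2 and 2.39 and 11.9 CPM in GF replicates 1 and 2. Ppp1r15a, a stress-induced phosphatase subunit, had 49.1 and 183.0 CPM in SPF and 104.1 and 224.0 CPM in GF. Nr4a3, an orphan nuclear receptor induced by antigen receptor signals, had 0.26 and 1.84 CPM in SPF and 0.61 and 2.08 CPM in GF, with 3 reads in SPF replicate 1. All 3 had the library order of Fos, with log2 fold changes by number of 2.47 (SE 0.57), 1.41 (SE 0.37) and 2.09 (SE 0.53).

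Of 26 tested genes of the ERK, JNK and p38 cascades and their nuclear activators, 0 passed the edgeR quasi-likelihood test, DESeq2 or the edgeR exact test in either split. At an unadjusted p under 0.05 by number 2 were higher and 2 lower, against 9.67% and 8.92% of all tested genes, and the median log2 fold change was 0.14 by number. Braf had 0.52 (SE 0.17), Sos1, an activator of RAS, 0.50 (SE 0.18), and Mapk3 (ERK1) -0.45 (SE 0.16). With the length trend removed, Braf, Sos1 and Mapk3 had -0.17, -0.13 and -0.19. Of 12 MAP kinase phosphatase and SPRY feedback genes, 0 passed the edgeR quasi-likelihood test or DESeq2 in either split. The edgeR exact test called Dusp6 higher by number (adjusted p = 0.036), beside 1.87% of all genes called higher. By number 2 were higher and 0 lower at an unadjusted p under 0.05, against 9.67% and 8.92% of all tested genes, with a median log2 fold change of 0.44. Dusp1, a phosphatase of p38 and JNK that is itself an immediate early gene, had 6.64 and 75.2 CPM in SPF and 32.3 and 114.6 CPM in GF, again low in SPF replicate 1 and high in the libraries numbered 2. Dusp6, a phosphatase of ERK, had 21.2 and 42.8 CPM in SPF and 18.9 and 33.7 CPM in GF. Spred2, an inhibitor of RAS to ERK signalling, had a log2 fold change by number of 1.15 (SE 0.47).

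Of the 15 tested AP-1 and related bZIP factors other than the members, 0 passed the edgeR quasi-likelihood test or the edgeR exact test in either split. DESeq2 called Atf7 higher by number (adjusted p = 0.049), beside 1.77% of all genes called higher. Their median log2 fold change was 0.17 by number and 0.10 by recipient. Maf had 10.9 and 10.7 CPM in SPF and 18.1 and 22.2 CPM in GF (log2 fold change by recipient 0.90, unadjusted p = 0.016 in the edgeR test, adjusted p = 0.86). Both GF libraries lay above both SPF libraries for 5 of the 15, Maf among them, and below for 2. These orders held for 16.8% and 16.4% of all tested genes. Atf7, of the CREB and ATF group, had 1.49 and 18.7 CPM in SPF and 8.88 and 22.9 CPM in GF, an order like that of Fos. Bach1, a heme-regulated repressor, had a log2 fold change by number of 0.42 (SE 0.15), which was 0.057 with the length trend removed. The EGR corepressor genes Nab1 and Nab2 had 0.19 (SE 0.19) and 0.43 (SE 0.23) by recipient (0.12 and 0.44 with the length trend removed). Each had its GF values above its SPF values, as did 16.8% of all tested genes. Egr4 had 0 reads in all 4 libraries.

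T cell genes known to be linked to AP-1 and EGR factors numbered 15 tested, of which 0 passed the edgeR quasi-likelihood test in either split. DESeq2 and the edgeR exact test each called Ifng alone among them higher by number (adjusted p = 0.0018 and adjusted p = 0.0013) and none by recipient. These tools called 1.77% and 1.87% of all genes higher by number. At an unadjusted p under 0.05 there were 3 higher and 0 lower by number, against 9.67% and 8.92% of all tested genes, and 0 higher and 2 lower by recipient, against 2.17% and 1.05%. The median log2 fold change by number was 0.25. Ifng, the interferon-γ gene, had 19.7 and 49.3 CPM in SPF and 26.1 and 68.8 CPM in GF. Tnf had 8.82 and 15.8 CPM in SPF and 9.84 and 17.9 CPM in GF. Nfatc2, the calcium-regulated partner of AP-1 at composite sites, had 86.7 and 163.8 CPM in SPF and 117.9 and 204.2 CPM in GF. All 3 were higher in the library numbered 2 of each recipient, as were 10 of the 15 and 4376 of all 11271 tested genes. With the length trend removed, the log2 fold change by number went from 0.85 to 0.38 for Nfatc2 and from 1.36 to 1.77 for Ifng. Il2 had 0 reads in all libraries.

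**Figure D5:**
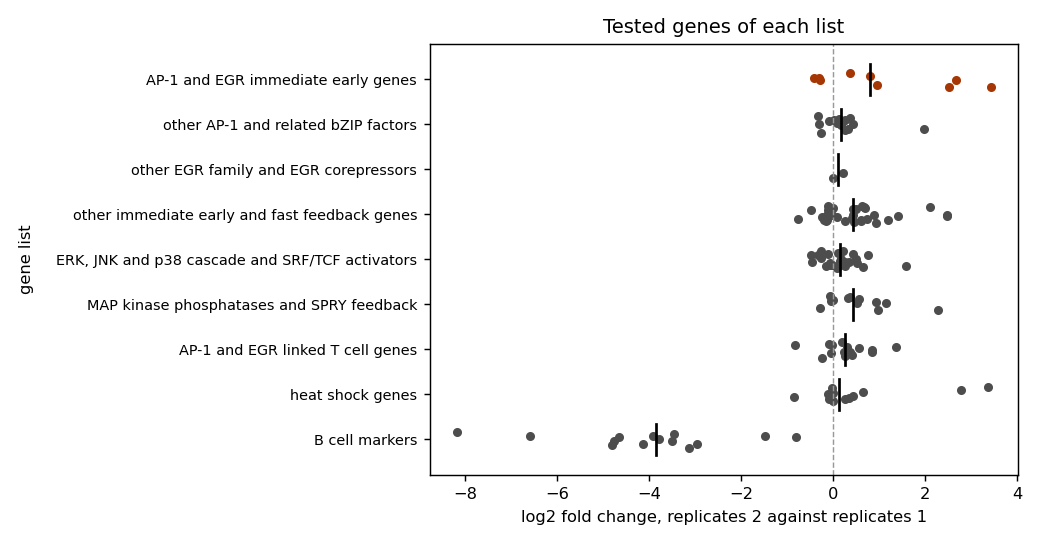
Log2 fold change of the libraries numbered 2 against those numbered 1, 1 point per tested gene, for the AP-1 and EGR genes (red-brown), 7 related lists and B cell markers, with a vertical bar at each list's median and a dashed line at the median of all tested genes. The AP-1 and EGR genes reach 3.43 with a median of 0.80, and the B cell markers lie at the opposite side with a median of -3.86.

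Of the 12 tested heat shock genes, 8 were lower in each GF library than in either SPF library, beside 16.4% of all tested genes, and 3 had both libraries numbered 2 above both numbered 1, beside 28.4%. The edgeR quasi-likelihood test called 0 of the 12 in either split, with 9 lower by recipient (median log2 fold change -0.40) and 6 higher and 6 lower by number. At an unadjusted p under 0.05, 1 was lower by recipient, beside 1.05% of all tested genes. By number 2 were higher at that level, Hspa1a and Hspa1b, beside 9.67% of all. DESeq2 and the edgeR exact test also called these 2, beside 1.77% and 1.87% of all genes called higher. Hspa1a and Hspa1b, the inducible HSP70 genes, had log2 fold changes by number of 3.36 (SE 0.55) and 2.77 (SE 0.42), higher in the libraries numbered 2 like Fos. In SPF replicate 1 Hspa1a had 3 reads. The median log2 fold change of the 12 by number was 0.13, and the sum over the 13 listed was 4753 and 4675 CPM in the SPF and 2897 and 3768 CPM in the GF replicates. Dnaja1, a cochaperone, had 521.8 and 383.3 CPM in SPF and 203.7 and 281.0 CPM in GF. All 14 tested B cell markers were lower in both libraries numbered 2 than in both numbered 1, beside 29.6% of all tested genes, the opposite direction to Fos by number. All 14 were lower by number at an unadjusted p under 0.05, beside 8.92% of all. By number the edgeR quasi-likelihood test called 0 of them, DESeq2 called 7 lower and the edgeR exact test 12 lower. DESeq2 gave no adjusted p for 6 of the 14. The shares of all genes called lower by DESeq2 or the exact test were not computed. By recipient each tool called 0. The list summed to 122.8 and 147.3 CPM in SPF and GF replicate 1 and to 29.7 and 32.2 CPM in SPF and GF replicate 2. Cd79b was the most abundant of the 15 listed, and 0 to 3 of them had no reads in a library. Macrophage and monocyte markers summed to 1271 and 770.3 CPM in SPF and 949.2 and 572.8 CPM in GF, nearly all from Ly6c2. T cells also express Ly6c2. Of the 3 tested, Ly6c2 and Lyz2 were lower in both libraries numbered 2 (29.6% of all tested genes) and Cd68 higher (28.4%). Lyz2 had 48 and 8 reads in SPF and 65 and 0 in GF. It was called lower by number by DESeq2 (adjusted p = 0.0069) and the edgeR exact test (adjusted p = 0.00028). Cd68 had 40 and 91 reads in SPF and 60 and 151 in GF. Fcgr1 had 0 reads throughout. Neutrophil markers summed to 0.79 CPM at most, with Mpo and Elane at 0. Dendritic cell markers summed to 400.9 to 1019 CPM, mostly from Itgax, which activated CD8 T cells also express. NK cell markers summed to 266.8 to 413.1 CPM, mostly from Gzma (199.4 to 345.2 CPM). Of the same list, Ncr1 had 0 to 3 reads per library and Klra8 and Klra4 had 0. CD4 T cell markers summed to 66.4 to 107.6 CPM, mostly from Zbtb7b (51.2 to 78.4 CPM) and then Cd40lg (14.6 to 30.2 CPM). Cd4 itself had 0 to 6 reads per library. The 2 tested, Zbtb7b and Cd40lg, were lower in both GF than in both SPF libraries, beside 16.4% of all tested genes. Erythroid and platelet markers summed to 3.67 to 5.65 CPM and CD8 T cell markers to 3060 to 4352 CPM. Stromal and endothelial markers summed to 83.8 to 106.7 CPM, nearly all from Pecam1 (83.4 to 105.6 CPM), with Col3a1 and Kdr at 0. The part of other cells, stress or transcript length in the levels of the members was not tested, and in bulk RNA a change in the share of cells that express a gene and a change of its RNA per cell cannot be told apart.

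The profile shared by the members was summarised as the median of their centred log2 CPM, which was -0.61 and -0.03 in the SPF and -0.06 and 0.62 in the GF replicates. Junb, Egr1 and Fosl2 lay nearest to it, at Euclidean distances over the 4 libraries of 0.36, 0.36 and 0.37, and Fosb and Fos farthest, at 3.996 and 3.48. The non-members nearest to it were Gse1 (0.073), Pde4a, a cyclic AMP phosphodiesterase gene (0.078), Rfx1 (0.11), Zmiz1 (0.12) and Serac1 (0.12). Gse1 had 68.9 and 105.5 CPM in SPF and 98.98 and 157.6 CPM in GF. With 4 libraries, many genes lie near any such profile, and the likeness is a description.

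Exons of 3 members overlap a gene on the opposite strand, and the library kit does not mark strand. Junb, on chromosome 8 from 84974484 to 84978718 (GRCm38, minus strand), shares 173 of its 2301 exonic bases with Prdx2, a peroxiredoxin gene that had 1401 and 931 reads in the SPF and 1271 and 850 in the GF replicates, the opposite order to Junb. Jun, on chromosome 4 from 95049034 to 95052222 (minus strand), shares 232 bases of its single exon with Junos, and Jund, on chromosome 8 from 70698949 to 70700616 (plus strand), shares 877 of 1668 with Gm11175. Junos and Gm11175 were not among the genes counted. Reads from these stretches cannot be assigned by strand. Fos, on chromosome 12 from 85473890 to 85477273 (plus strand, 4 exons), and Fosb, on chromosome 7 from 19302696 to 19310051 (minus strand), overlap no annotated gene, nor do Fosl2 on chromosome 5 or Egr2 on chromosome 10. Egr1 on chromosome 18 and Egr3 on chromosome 14 likewise overlap none.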

How the data were processed

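The authors deposited raw read counts by gene symbol, 1 column for each library, and the labels name each sample's column. CASAVA, TopHat, Picard, featureCounts, Subread, edgeR and mm10 are named in the submitters' processing notes; their versions and settings were not given in the sources used here. Differences in counts were tested by edgeR 4.0.16 under R 4.3.3 (TMM, filterByExpr, quasi-likelihood F test, two-sided, Benjamini-Hochberg, threshold 0.05), once by recipient and once by replicate number, without covariates. SEs are the fold change over the square root of F. Log2 CPM differences use a prior count of 2. The step was also run on simulated counts that vary less than these libraries (common dispersion 0.076 by recipient and 0.045 by number). That run therefore gives no error rates for these data. Alternatives were DESeq2 1.42.0, the exact test, other scalings, no filter, the replicate block, length offsets (loess, span 0.3) and each library left out. Positions and lengths came from GENCODE M21 (GRCm38, the mm10 assembly), matching 99.3% of tested genes, and promoters from RefSeq, which matched 8 of 10 members (not Egr1 and Egr3). Members and lists were chosen with earlier results of these data known. All members were named, with up to 3 genes per related list by smallest p and the 5 most similar genes. Prdx2, Cd8a, Nr4a2, Tnfaip3, Ncr1, Klrb1c, Eomes, Tyrobp, Fcer1g, Lyz2, Cd68, Cd40lg and Cd4 were chosen after their values were seen.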

Additional observations from a re-analysis of the deposited data

Results flagged for a closer look

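Egr2 and Egr3 differed between replicates in opposite directions in the recipient groups. For Egr2 the log2 difference of replicate 2 minus replicate 1 was -0.96 in SPF and 0.23 in GF, and for Egr3 it was -1.07 in SPF and 0.23 in GF. Each of these values compares 1 library with 1 library, so the difference between the recipient groups was not tested. The Egr2 values rest on 18 to 30 reads per library and those of Egr3 on 45 to 110.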

How the results depend on the processing

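The counts of members called, 0 by recipient and 0 by replicate number, were also 0 with DESeq2 size factors, library totals only, no filter and length offsets. The fit with both terms, recipient and number (the replicate block), called 5 members by recipient and 5 by number, each time Fos, Fosb, Jun, Junb and Egr1, beside 10.7% and 28.5% of all genes. Together with length offsets it called 0 by recipient (0.222% of all genes) and 4 by number (8.41%), where Egr1 was not called. The replicate numbers are shared only as numbers, and whether they pair the libraries cannot be told from the labels. By number, DESeq2 called 1 member and the exact test 2. With each library left out, calls ranged from 0 to 5 by recipient and from 0 to 7 by number, and the median log2 difference from 0.15 to 0.94 and from 0.41 to 1.06. By recipient, log2 fold changes then ranged from -0.60 to 4.75 for Fos, -1.08 to 5.58 for Fosb, -0.82 to 3.28 for Jun, -0.42 to 0.15 for Jund and -0.67 to 0.37 for Egr2. By number they ranged from 1.80 to 5.22 for Fos, 2.59 to 6.01 for Fosb, 1.84 to 3.83 for Jun, 0.43 to 1.29 for Junb, 0.40 to 1.36 for Egr1, -0.77 to 0.024 for Egr2 and -1.09 to 0.22 for Egr3. Length offsets turned the sign by number for Fosl2 (-0.091, and -0.10 with the replicate block), Jund (0.012 and 0.012), Braf (-0.17 and -0.17) and Sos1 (-0.13 and -0.11). The cause of these changes was not tested. Depth limits Atf3 and Egr2, and with 2 libraries per group the smallest two-sided p of an exact permutation test is 0.33.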
